A study of Solanum lycopersicum x Solanum pennellii and Solanum lycopersicum with 21 samples.

Results

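DGK1, CDPK1 and MKK3 are 3 tomato genes for signalling kinases, each measured by 1 probe set among 10101 tested, and they were followed across 21 arrays of anthers taken 1 day before the flowers opened. They were picked by symbol because their values had moved in IL-7_2, with no threshold stated, and they are 3 of the 802 genes that carry a symbol. M82, the domesticated tomato labelled as the parental control, has 6 arrays. The introgression line IL-1_1_3 has 3, and the introgression lines IL-8_1_1, IL-7_2 and IL-4_2 have 4 apiece. An introgression line carries a segment of a wild relative in a domesticated background, and the wild species here is Solanum pennellii. The line field shortens IL-1_1_3 to IL-1_1 and IL-8_1_1 to IL-8_1. All plants had the same greenhouse care and no treatment, while plant age, segment sizes and the number of plants per sample are absent from the labels used here. How many copies of its segment a line held is not said, although the word hybrids is used for the lines in the series design.

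The genes stand for different branches of intracellular signalling. A diacylglycerol kinase such as DGK1 adds phosphate to the lipid messenger diacylglycerol and so makes phosphatidic acid, itself a messenger in plants. Phospholipase D makes phosphatidic acid directly from membrane lipids. In tomato, alternative splicing of a diacylglycerol kinase gene gives a form that binds calmodulin, the calcium sensor. A calcium-dependent protein kinase such as CDPK1 carries its own calmodulin-like domain and is switched on by calcium, and a tomato enzyme of this name is known for its induction by wounding. MKK3 is a MAP kinase kinase, the middle layer of a cascade in which a MAP kinase kinase kinase activates it and it activates a MAP kinase. Calcium and phosphatidic acid are known for their part in the tip growth of the pollen tube.

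Levels are log2 expression values, on which a difference of 1 is a doubling, and errors beside levels are SD over arrays. The values ran from 3.39 to 14.69. An array gives no read depth, and precision here is limited by how many arrays a group has. An array's mean correlation with the others of its group lay between 0.941 and 0.994, lowest for IL-7_2 array 2. A principal component analysis of each array's deviation from its group mean gave a first axis with 59.2% of that variation. An earlier analysis of these data had found 3 arrays apart, and each scored highest of its group on that axis: array 3 of M82, array 3 of IL-4_2 and array 2 of IL-7_2. By correlation with their group IL-7_2 arrays 3, 4 and 1 came next after array 2 (0.965, 0.968 and 0.974), and IL-8_1_1 array 2, which was kept, was lower (0.985) than IL-4_2 array 3 (0.989). IL-8_1_1 array 2 also scored highest of its group on that axis, at 23.7 against 21.5 for IL-4_2 array 3. Values without the 3 arrays found apart are given below. The label anther was looked at through pollen markers, which cannot tell whole anthers from pollen. Of 10 symbols 5 were found, that is, named in the annotation, which names 909 of the 10101 probe sets. Shy read between 13.79 and 14.20, PRK2 between 12.11 and 12.97 and LAT61 between 10.58 and 11.12 on every array. PRK1 read between 10.74 and 13.14 and PRK3, the widest, between 4.71 and 9.86. None of 4 tapetum symbols was named, which says nothing about their RNA. Titles of the M82 samples read Pollen Control M82, and those of the lines name no tissue. The labels do not say that replicates came from separate plants, so the tests rest on a spread between samples that may be technical. In whole anthers, fewer cells of a type and less RNA per cell cannot be told apart.

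DGK1 (probe set Les.3526.1.S1_a_at) was lowest in IL-7_2. The 4 arrays of IL-7_2 read 6.73, 7.41, 5.80 and 5.94, a mean of 6.47 ± 0.75 (SD, n = 4). In M82 it ranged from 8.21 through a median of 8.77 to 9.11, with a mean of 8.75 ± 0.35 (n = 6). Each IL-7_2 array lay below every M82 array, with a gap of 0.81 between the groups. The difference of the means was -2.29, or 4.87-fold lower in IL-7_2, and it ranked 13 among the falls over the 10101 probe sets. Since this contrast chose the gene, the difference is a description and was not tested.

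In the other lines DGK1 read 9.19, 9.43 and 9.55 in IL-1_1_3, with a mean of 9.39 ± 0.18 (n = 3). It read 9.09, 9.19, 9.53 and 9.09 in IL-4_2 (9.22 ± 0.21, n = 4) and 8.86, 9.36, 8.97 and 8.90 in IL-8_1_1 (9.02 ± 0.23, n = 4). The order of the means was therefore IL-1_1_3, IL-4_2, IL-8_1_1, M82 and, far below, IL-7_2. No neighbours among the first 4 differed beyond their spread, by differences of 0.17, 0.20 and 0.27. All 3 arrays of IL-1_1_3 lay above every M82 array, but the difference of 0.64 ± 0.27 (SE) did not pass (adjusted p = 0.207). The differences from M82 of 0.47 ± 0.25 in IL-4_2 and 0.27 ± 0.25 in IL-8_1_1 did not pass either (adjusted p = 0.458 and 0.846), and the groups overlapped. The 95% interval of the IL-8_1_1 difference ran from -0.25 to 0.80. IL-7_2 minus IL-1_1_3 was -2.92 for DGK1, a 7.58-fold lower level, minus IL-4_2 it was -2.76 and minus IL-8_1_1 -2.56, and none of the 17 other arrays came below 8.21.

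**Figure D1:**
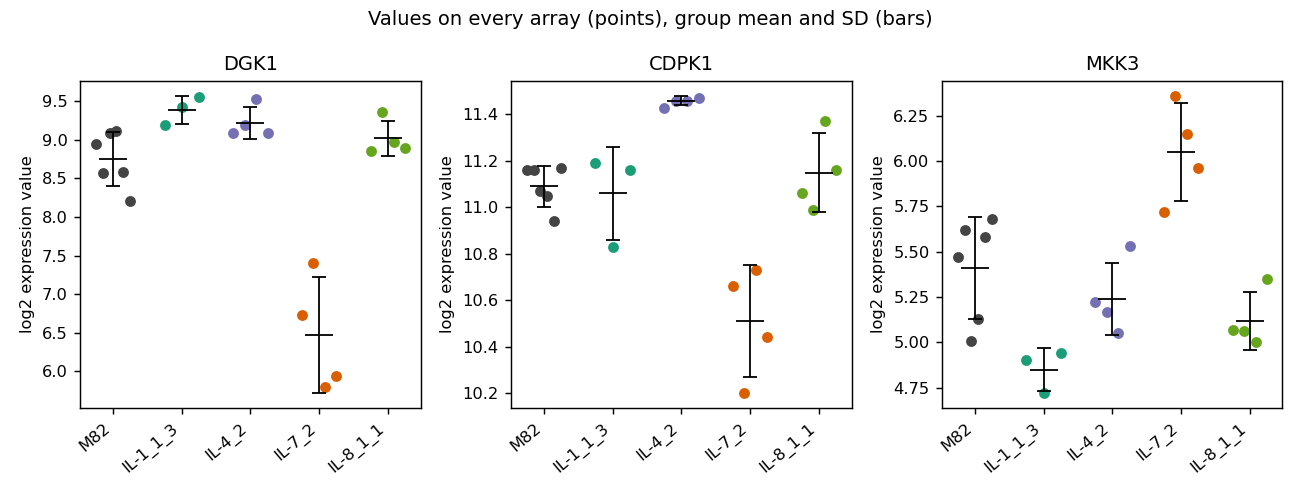
Log2 expression values (vertical axes) of DGK1, CDPK1 and MKK3 on every array, by group (horizontal axes). Points are arrays, and bars give the group mean and SD. The 4 IL-7_2 arrays lie below all 17 others for DGK1 and CDPK1 and above all 17 for MKK3.

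CDPK1 (Les.923.1.S1_at) was also lowest in IL-7_2, by less. The IL-7_2 arrays read 10.66, 10.20, 10.73 and 10.44, a mean of 10.51 ± 0.24 (SD, n = 4), while M82 ranged from 10.94 through 11.11 to 11.17 (11.09 ± 0.09, n = 6). The groups did not overlap, with a gap of 0.21, and the difference of the means was -0.58, or 1.5-fold lower in IL-7_2. It ranked 300 among the falls over the 10101 probe sets.

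IL-4_2 stood at the other end for CDPK1, with 11.43, 11.46, 11.46 and 11.47, the narrowest spread of the gene (11.46 ± 0.02, n = 4). All 4 of its arrays lay above every M82 array, and the difference of 0.37 ± 0.10 (SE), a 1.29-fold higher level, did not pass (adjusted p = 0.0752). The gene read 11.19, 10.83 and 11.16 in IL-1_1_3 (11.06 ± 0.20, n = 3) and 11.06, 10.99, 11.37 and 11.16 in IL-8_1_1 (11.15 ± 0.17, n = 4). These 2 lines differed from M82 by -0.03 ± 0.11 and 0.06 ± 0.10 (adjusted p = 0.879 and 0.876), with 95% intervals from -0.26 to 0.20 and from -0.15 to 0.27. The order of the means was IL-4_2, IL-8_1_1, M82, IL-1_1_3 and IL-7_2, and the middle 3 were within their spread of each other. IL-7_2 lay below IL-4_2 by 0.95, below IL-8_1_1 by 0.64 and below IL-1_1_3 by 0.55, the last with a gap of 0.10 between the groups.

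MKK3 (Les.1068.1.S1_at) went the other way and was highest in IL-7_2. The IL-7_2 arrays read 5.72, 6.36, 6.15 and 5.96, a mean of 6.05 ± 0.27 (SD, n = 4), against 5.01 through 5.53 to 5.68 in M82 (5.41 ± 0.28, n = 6). The groups did not overlap, but the gap was 0.04. The difference of the means was 0.63, or 1.55-fold higher in IL-7_2, and it ranked 113 among the rises over the 10101 probe sets. The gene's mean over all arrays, 5.37, was lower than that of all but 14.2% of the probe sets, and the deposited values come with no measure of signal over background.

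IL-1_1_3 had the lowest values of MKK3, 4.90, 4.72 and 4.94 (4.85 ± 0.12, n = 3), and all 3 lay below every M82 array. The difference from M82 of -0.56 ± 0.16 (SE) did not pass (adjusted p = 0.0645), with a 95% interval from -0.89 to -0.23. IL-4_2 read 5.22, 5.17, 5.05 and 5.53 (5.24 ± 0.20, n = 4) and IL-8_1_1 5.07, 5.06, 5.0 and 5.35 (5.12 ± 0.16, n = 4). Both overlapped M82, with differences of -0.17 ± 0.14 and -0.29 ± 0.14 (adjusted p = 0.64 and 0.76). The order of the means was IL-7_2, M82, IL-4_2, IL-8_1_1 and IL-1_1_3, and the neighbours from M82 to IL-8_1_1 were within their spread. MKK3 was higher in IL-7_2 than in IL-1_1_3 by 1.20, in IL-8_1_1 by 0.93 and in IL-4_2 by 0.80.

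For each of the 3 genes, then, the IL-7_2 arrays lay outside the range of the 17 others, which 1.72% of all probe sets did, and outside the M82 range, as 3.78% did. The members were chosen on this line, so nothing is read from those counts. The comparisons left for testing were the 3 other lines against M82 and the 3 pairs among those lines. The first share the M82 arrays with the choice of the genes, and the differences of the pairs share no array with it. The error of each test was pooled over all groups, so all of them also rest on the spread of the M82 and IL-7_2 arrays. In limma's moderated test with Benjamini-Hochberg adjustment over all probe sets, 0 of 18 such tests passed an adjusted p of 0.05, and 6 had an unadjusted p under 0.05: 2 in IL-1_1_3 and 1 in IL-4_2 against M82, 2 between IL-1_1_3 and IL-4_2, and 1 between IL-4_2 and IL-8_1_1. An unadjusted p under 0.05 was reached by 20.1% of all probe sets in IL-1_1_3, 12.5% in IL-4_2 and 6.82% in IL-8_1_1 against M82. Between lines it was reached by 8.79% for IL-1_1_3 and IL-4_2, 9.65% for IL-1_1_3 and IL-8_1_1, and 7.75% for IL-4_2 and IL-8_1_1. At the adjusted threshold the background of calls was 1.97% of probe sets in IL-1_1_3, 1.83% in IL-4_2 and 1.44% in IL-8_1_1 against M82. Between the lines it was 1.67% for IL-1_1_3 and IL-4_2, 1.48% for IL-1_1_3 and IL-8_1_1, and 2.33% for IL-4_2 and IL-8_1_1.

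Among those lines CDPK1 gave the clearest contrast. It was higher in IL-4_2 than in IL-1_1_3 by 0.40 ± 0.12 (SE; adjusted p = 0.134) and than in IL-8_1_1 by 0.31 ± 0.11 (adjusted p = 0.258), and in both cases all 4 IL-4_2 arrays lay above the other line. MKK3 was lower in IL-1_1_3 than in IL-4_2 (-0.39 ± 0.17, adjusted p = 0.48) and IL-8_1_1 (-0.27 ± 0.17, adjusted p = 0.711), again with no overlap. None of these passed. DGK1 overlapped in all 3 pairs, and its largest difference was 0.37 ± 0.30 between IL-1_1_3 and IL-8_1_1 (adjusted p = 0.825). The pooled SE of DGK1 includes the IL-7_2 SD of 0.75, against 0.18 in IL-1_1_3, 0.21 in IL-4_2 and 0.23 in IL-8_1_1. In fits of each of these lines and M82 alone, DGK1 did not pass either (adjusted p = 0.118, 0.238 and 0.703 in that order).

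Groups without overlap were common in small groups. Against M82, 2 of the 3 genes did not overlap in IL-1_1_3 (11.4% of all probe sets), 1 in IL-4_2 (5.34%) and 0 in IL-8_1_1 (2.61%). In the pairs of lines the counts were 2 for IL-1_1_3 and IL-4_2 (12.2%), 1 for IL-1_1_3 and IL-8_1_1 (13.8%) and 1 for IL-4_2 and IL-8_1_1 (8.73%).

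Some of these results rested on the arrays used. Without the 3 arrays that stood apart, MKK3 was lower and DGK1 higher in IL-1_1_3 than in M82 past the threshold (-0.64 ± 0.13, adjusted p = 0.00711, and 0.70 ± 0.21, adjusted p = 0.0327). In that setting 19.0% of all probe sets were called in IL-1_1_3, up from 1.97%. For this comparison the removal was one-sided, since M82 lost array 3 and IL-1_1_3 lost none. On the first axis M82 array 3 deviated from its group by 34.6, and IL-1_1_3 arrays 2 and 3 by 7.4 and 5.9. With group differences kept in the score, M82 array 3 had 22.5, below the 25.7 and 24.2 of those IL-1_1_3 arrays. MKK3 passed in IL-1_1_3 without M82 array 3 alone (adjusted p = 0.0196), the array with its lowest M82 value. In that fit 5.81% of all probe sets were called. CDPK1 was higher in IL-4_2 past the threshold in the fit of IL-4_2 and M82 alone (0.37 ± 0.06, adjusted p = 0.0119), where 1.71% of all probe sets were called. With array weights, which give less weight to arrays far from their group, 8 of the 18 tests passed, while the probe sets called grew from 199 to 2525 in IL-1_1_3 and from 185 to 1863 in IL-4_2. The differences of IL-7_2 from M82 without those 3 arrays were -2.53 for DGK1, -0.48 for CDPK1 and 0.45 for MKK3.

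**Figure D2:**
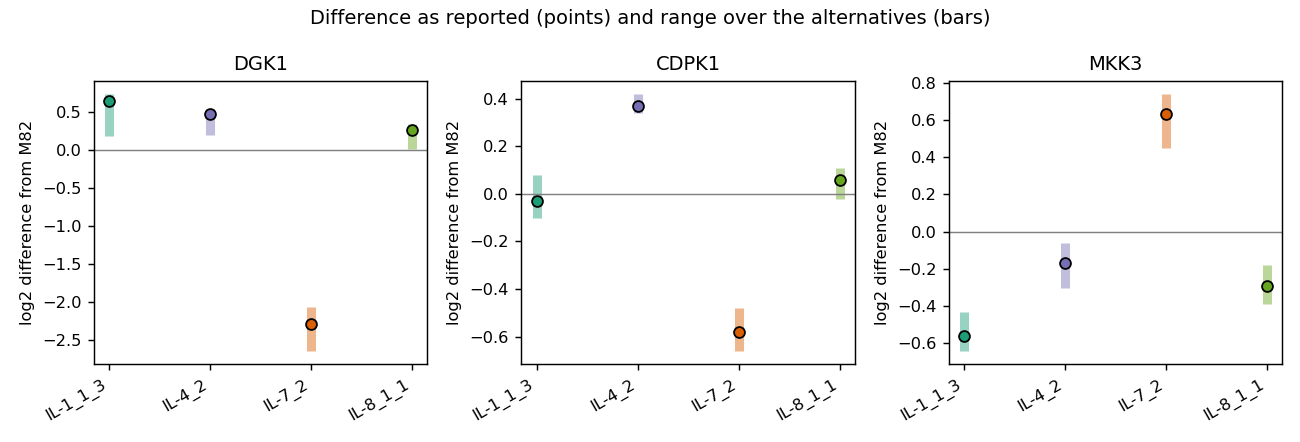
Log2 difference of each line from M82 (vertical axes) for DGK1, CDPK1 and MKK3. Points are the differences as reported, and bars span the alternative settings tried, including each array left out in turn. In IL-7_2 the bars run from -2.64 to -2.06 for DGK1, from -0.66 to -0.48 for CDPK1 and from 0.45 to 0.74 for MKK3, all on one side of 0.

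Within groups the genes varied to different degrees. The pooled within-group SD was 0.41 for DGK1, 0.15 for CDPK1 and 0.23 for MKK3, against a median of 0.19 over all probe sets. DGK1 had a larger SD than 85.2% of probe sets, and its range in IL-7_2 was 1.61 against 0.89 or less in each other group. Its deviations from the group means followed the first axis closely, with r = 0.97 over the 21 arrays and r = 0.94 over the 17 arrays outside IL-7_2. Those points share 1 array each with the axis, which is built from all probe sets, so the r is a description. For CDPK1 the same r was -0.53 over 21 arrays and -0.33 over 17, and for MKK3 it was -0.24 and -0.73.

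The score of each array on that axis overlapped between IL-7_2 and M82, from -45.7 to 55.9 in the first and from -38.0 to 22.5 in the second. With the axis score as a covariate, an alternative chosen after seeing the data, the difference of IL-7_2 from M82 was -2.36 for DGK1, -0.57 for CDPK1 and 0.64 for MKK3. Under the same covariate the DGK1 difference from M82 went from 0.64 ± 0.27 to 0.18 ± 0.08 in IL-1_1_3, from 0.47 ± 0.25 to 0.20 ± 0.07 in IL-4_2 and from 0.27 ± 0.25 to 0.01 ± 0.07 in IL-8_1_1 (adjusted p = 0.257, 0.15 and 0.992 with the covariate). Since the score carries group differences, these changes are not an adjustment for spread within groups alone.

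Some pollen markers varied along with DGK1 within groups, as did genes outside that list. MAPKKKalpha had r = 0.96 with DGK1 and TFT7 0.91, examples picked after their values were seen. Of the 10101 probe sets, 5974 followed the first axis with an r at least as large in size as the -0.53 of CDPK1. In each pair of genes below, both were read on the same arrays. Over 21 arrays the deviations of DGK1 had r = 0.88 with PRK3 and r = 0.85 with PRK1, both pollen receptor kinases. They had r = 0.66 with Shy, r = 0.44 with PRK2 and r = 0.08 with LAT61. Over the 17 arrays outside IL-7_2 these were 0.81, 0.59, 0.44, 0.14 and 0.43 in that order. PRK3 read 6.24, 9.72, 4.71 and 4.81 in IL-7_2, the same order of arrays as DGK1, and from 5.51 to 8.64 in M82. The mean of the 5 pollen markers ranged from 10.50 to 12.12 over the IL-7_2 arrays and from 10.89 to 11.84 over M82. In the reported fit none of the 5 passed in IL-7_2 (adjusted p of 0.16 or more). With array weights PRK1 was lower in IL-7_2 past the threshold (-1.08 ± 0.23 (SE), adjusted p = 0.0059), where 8.42% of all probe sets were called. The axis score gave -0.61 ± 0.17 for PRK1 (adjusted p = 0.0351, with 9.51% called). PRK2 and PRK3 did not pass in IL-7_2 in any alternative. Of the green tissue markers 2 of 8 were found, CAB6A and PsbQ, and their mean lay between 10.94 and 11.35 in IL-7_2, below the 11.43 to 11.77 of M82, and between 10.70 and 11.29 in IL-1_1_3. PsbQ, a photosystem II protein, fell in IL-7_2 from 11.97 to 11.57 (adjusted p = 0.0301), and CAB6A, a light-harvesting protein, fell in IL-1_1_3 from 11.24 to 10.51 (adjusted p = 0.0232). Of the fruit markers 4 of 6 and of the root markers 2 of 3 were found, and their smallest adjusted p in any line was 0.246. The part of any of these marker groups in the members' differences was not tested.

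**Figure D3:**
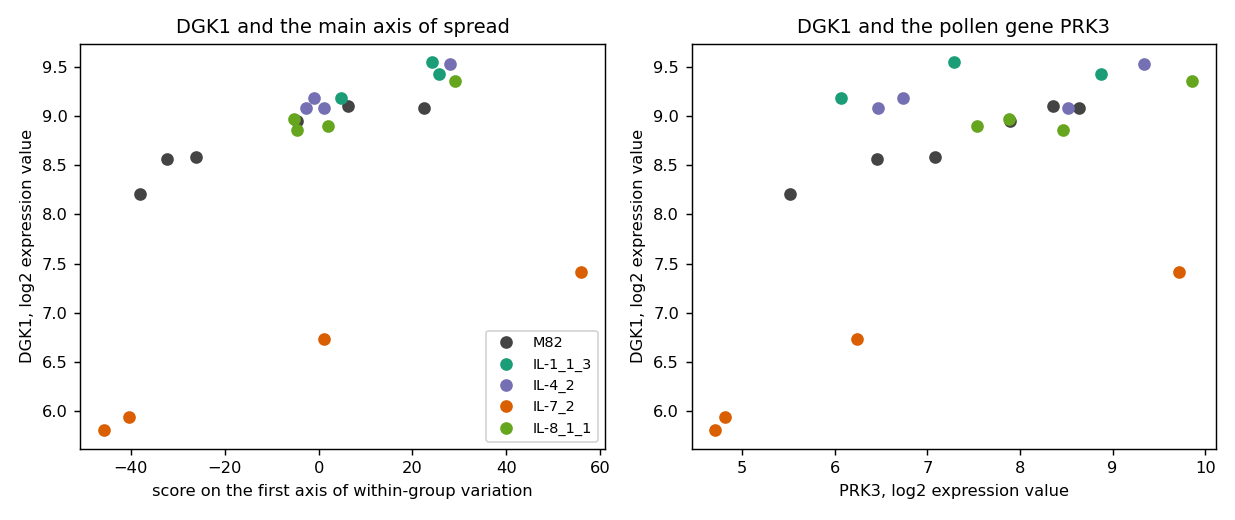
DGK1 log2 expression value (vertical axes) on each of the 21 arrays against the array's score on the first axis of within-group variation (left) and against the PRK3 log2 expression value (right). Scores are of arrays centred on the mean of all 21 arrays, so they also carry group differences. Colours mark the groups; the 4 IL-7_2 arrays lie below all others, and DGK1 climbs with either measure within IL-7_2 and M82.

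The 3 genes did not form a single pattern. Over the 21 arrays DGK1 and CDPK1 had r = 0.72, DGK1 and MKK3 r = -0.83, and CDPK1 and MKK3 r = -0.62, values to which the choice of genes that move in IL-7_2 contributes. Over the 17 arrays outside IL-7_2 the same pairs had r = 0.12, -0.79 and 0.16. The deviations of DGK1 and MKK3 from their group means had r = -0.25 over the 21 arrays and r = -0.72 over those 17. IL-1_1_3 was highest for DGK1 and lowest for MKK3, the reverse of IL-7_2.

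Around these genes, 40 other signalling genes had been listed by symbol in 5 lists. In the reported fit 0 passed in any line against M82 (limma, adjusted p of 0.0567 or more). Alternatives in which some of them passed are given below. At an unadjusted p under 0.05 the count was 10 of 40 in IL-1_1_3, 8 in IL-4_2, 5 in IL-7_2 and 1 in IL-8_1_1. These are 25%, 20%, 12.5% and 2.5% of the list, beside 20.1%, 12.5%, 13.7% and 6.82% of all probe sets. The share of all probe sets with an adjusted p under 0.05 was 2.84% in IL-7_2. The median difference of the 40 genes from M82 was 0.10, 0.13, 0.04 and 0.06 in the lines in that order, beside medians of 0.025, 0.031, 0.037 and 0.006 over all probe sets.

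Other genes of phosphatidic acid synthesis did not share the IL-7_2 pattern of DGK1. The lipid list held 5 phospholipase D genes besides it, and in IL-7_2 their differences from M82 ran from -0.05 to 0.32, none called. PLDa1 had the smallest p: its IL-7_2 arrays read 11.71, 12.00, 11.79 and 11.75, all above the M82 range of 11.36 to 11.70, and its difference of 0.26 ± 0.07 did not pass (adjusted p = 0.0803). In IL-4_2 it was 0.27 ± 0.07 above M82 (adjusted p = 0.0773), again with no overlap. PLDa2, the gene of the list with the smallest p in IL-1_1_3, was 0.82 ± 0.32 above M82 there (adjusted p = 0.16), with 8.38, 8.56 and 8.96 above every M82 array. In IL-4_2 it was 0.82 ± 0.29 above M82 (adjusted p = 0.203), with all 4 arrays above every M82 array. Within groups PLDa2 and PLDa3 varied along with DGK1, both with r = 0.91 over 21 arrays, examples picked after their values were seen.

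The calcium list held 2 genes besides CDPK1, cpk1, for another calcium-dependent protein kinase, and LCA1, for a calcium pump. In IL-7_2 cpk1 read 9.84, 10.62, 9.58 and 9.60 and overlapped M82 (0.20 ± 0.18, adjusted p = 0.703), where CDPK1 did not overlap. LCA1 had the smallest p of the list in the other 3 lines, with differences of -0.53 in IL-1_1_3, -0.57 in IL-4_2 and -0.37 in IL-8_1_1 (adjusted p = 0.335, 0.428 and 0.846). Within groups cpk1 had r = 0.91 with DGK1 and LCA1 r = -0.83, 2 further values picked after they were seen.

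The MAP kinase list held 7 genes besides MKK3: the kinase kinases MEK1, MKK2 and MKK4, the kinases MPK2, MPK3 and MAPK10, and MAPKKKalpha at the top of the cascade. In the reported fit none was called in any line, and in IL-7_2 the 7 differences ran from -0.15 for MKK4 to 0.31 for MAPKKKalpha. In alternatives MAPKKKalpha passed in IL-1_1_3 with array weights (adjusted p = 0.0163) and without the 3 arrays found apart (0.0275). It passed in IL-7_2 with the axis score (0.00649), and MAPK10 passed in IL-4_2 with array weights (0.0249). The shares of all probe sets called were 25%, 19%, 9.51% and 18.4% in that order. MEK1, with the smallest p in IL-7_2 in the reported fit, read 10.69, 10.41, 10.75 and 10.66 there (0.12 ± 0.08, adjusted p = 0.533). In IL-7_2 5 of the 7 differences were above 0, with a median of 0.12, as were all 7 in IL-1_1_3 (median 0.20), in IL-4_2 (0.17) and in IL-8_1_1 (0.15). MKK4 had the smallest p in IL-1_1_3 and IL-4_2, at 0.27 in both (adjusted p = 0.166 and 0.21), and MPK2 in IL-8_1_1, at 0.22 (adjusted p = 0.758). The 3 probe sets of MPK3 gave 0.10, 0.13 and 0.17 in IL-7_2. Of the 40 genes, MAPKKKalpha had the highest r with DGK1 within groups, 0.96 over 21 arrays and 0.90 over the 17 outside IL-7_2.

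Of 16 receptor and other protein kinase genes, CTR3, a relative of the ethylene signalling kinase CTR1, had the smallest p in IL-7_2. Its arrays there read 9.52, 9.51, 9.45 and 9.47, all above the M82 range of 9.21 to 9.38, and the difference of 0.21 ± 0.06 did not pass (adjusted p = 0.0567). It passed without M82 array 1 (adjusted p = 0.0419) and without M82 array 3 (0.0402). On all 21 arrays it passed with array weights (0.0266), in the unmoderated test (0.0197) and with the axis score (0.0158). In those fits of all arrays 8.42%, 3.16% and 9.51% of all probe sets were called. PTI1, a kinase that interacts with the resistance kinase Pto, had the smallest p in the lines other than IL-7_2, with differences of 0.39, 0.31 and 0.30 (adjusted p = 0.104, 0.235 and 0.487) and 0.02 in IL-7_2. Among 10 genes of 14-3-3 proteins and protein phosphatases, tft10, a 14-3-3 gene, was above M82 by 0.14 to 0.19 in the 4 lines (adjusted p of 0.161 or more).

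**Figure D4:**
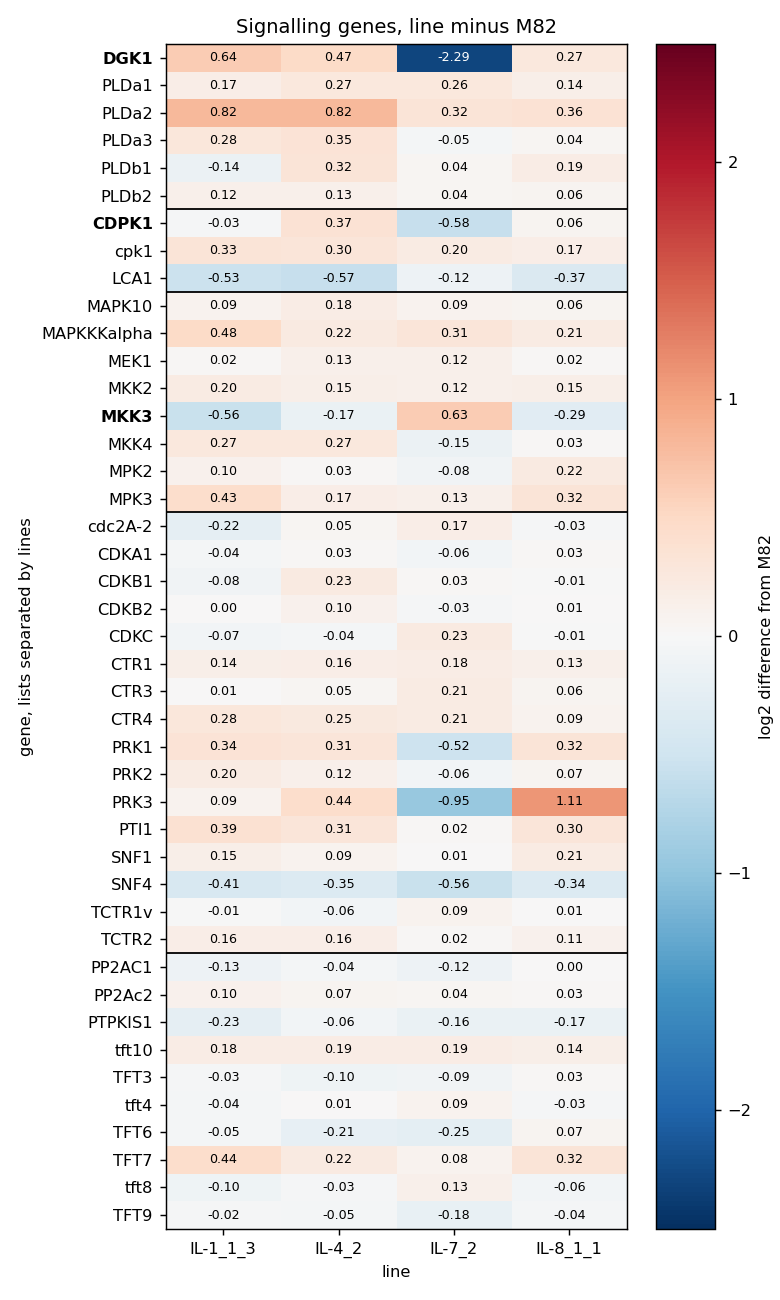
Log2 difference from M82 (colour and printed value) of the 43 signalling genes (rows, lists separated by black lines, DGK1, CDPK1 and MKK3 in bold) in the 4 lines (columns). The -2.29 of DGK1 in IL-7_2 is the lowest value of the plot, and PRK3, which spread widely within groups, gives the next lowest, -0.95, and the highest, 1.11.

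Among the 799 other genes with a symbol, those most like each member over the 21 arrays were found by Pearson's r, given here without a test. The choice used all 21 arrays, so highest or lowest groups in common and the r over 17 of those arrays are descriptions. For DGK1 these were LOC543817 (r = 0.96), LOC606305 (0.91) and FLACCA (0.89), the molybdenum cofactor sulfurase of abscisic acid synthesis. Over the 17 arrays outside IL-7_2 their r with DGK1 was 0.53, 0.24 and -0.46. LOC543817 averaged 11.68 in M82 and 8.19 in IL-7_2, and it also varied along with DGK1 within groups (r = 0.84), whereas FLACCA had r = -0.68 there.

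For CDPK1 the most like genes were AO1 (r = 0.88), an aldehyde oxidase, HPL (0.86), a hydroperoxide lyase of oxylipin synthesis, and FLACCA (0.79). AO1 averaged 12.98 in IL-4_2, 12.58 in M82 and 12.15 in IL-7_2, the same highest and lowest groups as CDPK1, and kept r = 0.72 over the 17 arrays outside IL-7_2. HPL had r = 0.62 and FLACCA -0.49 over those arrays. For MKK3 they were tXET-B2 (r = 0.83), a xyloglucan endotransglucosylase, AGPL3 (0.82), a large subunit of the enzyme that makes ADP-glucose for starch, and PME2.1 (0.81), a pectin methylesterase. Outside IL-7_2 these had r = 0.58, 0.69 and 0.71. The means of tXET-B2 were 10.29 in IL-7_2, 8.15 in M82, 7.71 in IL-8_1_1, 6.55 in IL-1_1_3 and 6.54 in IL-4_2, so that its highest groups were those of MKK3.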

How the data were processed

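Total RNA of anthers was labelled with biotin and hybridised to Affymetrix tomato arrays, per the labels' protocols. For every array the deposited values are a single log2 expression level for a probe set, a scale read from their range. The authors used affy, per the submitters' processing notes; the sources used here state neither its version nor the summarisation. Array medians lay between 9.49 and 9.55. Of 10209 probe sets, 108 AFFX controls were dropped and 63 RPTR reporters kept. A platform annotation, which can be old, named 909 probe sets.

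Groups came from the titles. A linear model of the 5 groups over 21 arrays (16 residual degrees of freedom) was fitted with limma 3.58.1 in R 4.3.3, with eBayes and Benjamini-Hochberg adjustment within each comparison, and called at 0.05. It was tested on simulated data. Their noise was independent between probe sets and arrays, so the test did not cover the shared first axis of the real arrays. The members, gene lists and alternatives were chosen with earlier results of these data known. For several probe sets of a gene, the one with the highest mean stood for it. Named were the members; in each list and line, called genes, or else the gene with the smallest p; and the 3 genes with a symbol most like each member. Replicate numbers were not used to pair the arrays in the reported fit. Same-numbered arrays had correlations of deviations from -0.806 to 0.698, over 0.1 in 13 of 36 pairs. These values cannot decide whether arrays were paired, since differently numbered arrays were not set beside them. Alternatives were other scalings, replicate block, 2-group fits, array weights, other variance priors, a filter on dim probe sets and arrays left out. No scan date or batch was given, so none was tested. How strongly the probes bind wild alleles was not tested.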

Additional observations from a re-analysis of the deposited data

Results flagged for a closer look

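Each of the 3 genes lay outside the M82 range in opposite directions in 2 lines. DGK1 was above every M82 array in IL-1_1_3 and below every one in IL-7_2, and these lines differed by 2.92 on the log2 scale. CDPK1 was above in IL-4_2 and below in IL-7_2, which differed by 0.95, and MKK3 was above in IL-7_2 and below in IL-1_1_3, which differed by 1.20. These differences were not tested, since IL-7_2 was used to choose the genes. Of all probe sets, 3.78% did not overlap M82 in IL-7_2, 11.4% in IL-1_1_3 and 5.34% in IL-4_2. The share on opposite sides of M82 in 2 lines was not counted, so nothing is read from the count of genes.

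Single arrays stood apart from their group in 3 of 52 groups examined for the named genes, where chance marks about 1 in 20. CDPK1 in IL-4_2 array 1 read 11.43, below the 11.46 to 11.47 of the others, in a group whose range was 0.03. PLDa1 in IL-4_2 array 4 read 12.00, above 11.76 to 11.78, and PTI1 in IL-8_1_1 array 2 read 9.78, above 9.33 to 9.36.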

How the results depend on the processing

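The differences of IL-7_2 from M82 kept their direction in all alternatives run, from -2.64 to -2.06 for DGK1, -0.66 to -0.48 for CDPK1 and 0.45 to 0.74 for MKK3. With the replicate block they were -2.46, -0.60 and 0.74, and the block changed no call. Of the tested member differences, the following adjusted p moved past the threshold, always in the direction reported. With array weights they were 0.0114 for DGK1, 0.00292 for MKK3 (both IL-1_1_3), 0.015, 0.00386 and 0.0391 for DGK1, CDPK1 and MKK3 in IL-4_2, 0.0492 for MKK3 in IL-8_1_1, and for CDPK1 0.0233 between IL-1_1_3 and IL-4_2 and 0.0127 between IL-4_2 and IL-8_1_1. That is 2, 3 and 1 of the members in the lines against M82 and 1 in each of those pairs, and 7 (IL-1_1_3), 9 (IL-4_2) and 2 (IL-7_2) of the 40 listed genes. With weights 25%, 18.4%, 8.42% and 3.08% of all probe sets were called in IL-1_1_3, IL-4_2, IL-7_2 and IL-8_1_1 against M82. In those pairs the shares were 6.44% and 9.67%. Without the 3 arrays that stood apart the adjusted p were 0.0327 for DGK1 and 0.00711 for MKK3 in IL-1_1_3, 2 members and 6 listed genes, with 1917 probe sets called there. That setting took array 3 from M82 and no array from IL-1_1_3. In IL-4_2, CDPK1 had 0.0119 in the fit of 2 groups and 0.00934 with the axis score, 1 member each. The axis score, chosen after seeing the data, also gave 2 listed genes in IL-4_2 and 5 in IL-7_2, and the unmoderated test 1 in IL-7_2. The shares of all probe sets called were 3.52% and 9.51% with the axis score and 3.16% in the unmoderated test.

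With each array left out in turn, the adjusted p of MKK3 in IL-1_1_3 ranged from 0.0196 (without M82 array 3, with 587 probe sets called) to 0.269, the members called there from 0 to 1 and the listed genes from 0 to 1. The listed genes called in IL-7_2 ranged from 0 to 2, with 2 without M82 array 1 and 1 without M82 array 3. In those 2 settings 3.02% and 2.81% of all probe sets were called there. Differences near 0 changed sign without a call. For CDPK1 in IL-1_1_3 this happened with array weights (adjusted p = 0.93), the axis score (0.826) and array 2 of the line left out (0.776; range 0.655 to 0.953), in IL-8_1_1 without its array 3 (0.958; range 0.813 to 1), and between those lines without IL-1_1_3 array 2 (0.988; range 0.703 to 0.999). For DGK1 between IL-1_1_3 and IL-4_2 it happened with the axis score (0.974). The cause was not tested. Probe sets called ranged from 32 (block) to 2525 (weights) around 199 in IL-1_1_3, from 92 (block) to 1863 (weights) around 185 in IL-4_2, from 106 (2 groups) to 961 (axis score) around 287 in IL-7_2, and from 83 (block) to 311 (weights) around 145 in IL-8_1_1; between lines the highest counts, with weights, were 650, 759 and 977. MKK3 has no value under the filter on dim probe sets, which leaves it out, and each gene has 1 probe set, so none could be compared.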
